A study of Macaca radiata with 6 samples.

Results

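ARL14, CLIC5 and RGN are 3 genes whose signals were lower in the corpus luteum of bonnet monkeys, a progesterone-secreting gland that forms in the ovary after ovulation, when the animals had been given prostaglandin F2-alpha (PGF2alpha). They were chosen by their measured values: on the same 6 arrays described here they were among the named genes with the largest decreases after PGF2alpha. Their differences between the groups are therefore a description and carry no test. Every probe set annotated with one of these symbols and no other was taken. That gave 10 probe sets, 2 for ARL14, 7 for CLIC5 and 1 for RGN. The 3 genes are among 14132 named on the array.

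Total RNA of the gland was hybridised to 6 Affymetrix Rhesus arrays. The 3 arrays of the treated group came from female monkeys that received 3 intramuscular injections of PGF2alpha at 59 µg/kg on day 10 of the luteal phase. The 3 arrays of the control group came from females injected with phosphate-buffered saline as vehicle on that day. In both groups the gland was removed 24 h after treatment and cut into pieces that were frozen. Replicates are numbered 1 to 3 for PGF2alpha and 4 to 6 for vehicle. The labels give 3 monkeys a group but not which array came from which animal, so errors and p-values cover only the spread among the arrays. The probes were designed for the rhesus macaque, a related species.

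ARL14 is a small GTPase of the ARF-like family, whose members switch between a GTP-bound and a GDP-bound form and direct vesicle traffic. It is known for moving vesicles of major histocompatibility complex class II along actin in dendritic cells, with the effector ARL14EP and the myosin MYO1E. CLIC5 belongs to the chloride intracellular channel proteins, which exist in soluble and membrane forms, and it binds ezrin at the actin cortex of microvilli, podocytes and inner ear hair cells. RGN, or regucalcin, is a calcium-binding protein of liver and kidney and also a gluconolactonase, the enzyme of the step before last in vitamin C synthesis. Monkeys lack the last enzyme of that pathway. In luteal cells the PGF2alpha receptor signals through phospholipase C, which releases calcium through inositol trisphosphate receptors.

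ARL14 was lower after PGF2alpha with both of its probe sets. In MmugDNA.34519.1.S1_at the deposited signals were 572, 760 and 847 on vehicle replicates 4, 5 and 6, and 11, 18.7 and 175 on PGF2alpha replicates 1, 2 and 3. The groups did not overlap, and PGF2alpha replicate 3 stood well above the other treated arrays. Its mean signal went from 726 ± 141 to 68.2 ± 92.5 (SD, n = 3), which is 9.39% of the vehicle mean. In the second probe set the signals were 358, 563 and 536 with vehicle and 70.7, 97.4 and 82.1 with PGF2alpha. Here the treated arrays lay close together and replicate 3 was not the highest. The mean went from 486 ± 112 to 83.4 ± 13.4 (SD, n = 3), or 17.2% of the vehicle mean.

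On the scale of log2(signal + 40), which understates the change of low signals, the difference of PGF2alpha minus vehicle was -3.13 (SE 0.485) for the first ARL14 probe set and -2.07 (SE 0.233) for the second. All 3 treated signals of the second, and those of replicates 1 and 2 of the first, lay below the median signal of their array. The second thus passed the filter on low signals only through the vehicle arrays. Detection calls were not used here, and how far these treated levels exceed background is unknown, which leaves the size of both differences uncertain. In gland tissue, fewer cells of a type and less RNA per cell cannot be told apart, which holds for all 3 genes.

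CLIC5 had 7 probe sets, and they did not give one answer. With 3 of them the signal was 3.98-fold to 5.88-fold lower on the log2(signal + 40) scale, with 2 it was lower by less than 2-fold, and with 2 there was no separation of the groups. The brightest, MmugDNA.6665.1.S1_at, read 4389, 6310 and 6953 with vehicle and 570, 727 and 2025 with PGF2alpha. The groups did not overlap, and replicate 3 was again the highest treated array. The mean went from 5884 ± 1334 to 1107 ± 798 (SD, n = 3), a log2 difference of -2.56 (SE 0.40).

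The probe set MmuSTS.720.1.S1_at read 2529, 3825 and 3054 with vehicle and 370, 417 and 1407 with PGF2alpha, a log2 difference of -2.28 (SE 0.422). It shared the high value of treated replicate 3. In MmugDNA.40266.1.S1_at the vehicle signals were 746, 877 and 1289 and the treated signals 136, 211 and 305, a log2 difference of -1.99 (SE 0.279). The lowest vehicle signal was 2.45 times the highest treated signal in this probe set, against 2.17 times in MmugDNA.6665.1.S1_at and 1.80 times in MmuSTS.720.1.S1_at.

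The other pair of tested CLIC5 probe sets carry neighbouring numbers in the array design. MmugDNA.16092.1.S1_at read 1697, 1283 and 1401 with vehicle and 817, 764 and 1199 with PGF2alpha, a log2 difference of -0.65 (SE 0.200). MmugDNA.16091.1.S1_at read 1118, 875 and 953 with vehicle and 706, 849 and 843 with PGF2alpha, a log2 difference of -0.28 (SE 0.161). In both the groups were apart by little, with the lowest vehicle signal 1.07 and 1.03 times the highest treated one. Their signals were above the array median on all 6 arrays, as were those of the 3 probe sets with larger differences.

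MmugDNA.721.1.S1_at and MmugDNA.11713.1.S1_at lay below the array median on all 6 arrays and did not pass the filter on low signals. The first read 13.2 to 75.5 with PGF2alpha and 15.9 to 30.8 with vehicle, and the second 9.01 to 45.4 and 12.1 to 28.2. Their groups overlapped, with log2 differences of 0.15 and -0.04. Which CLIC5 transcripts or exons each probe set reads is not given in the sources used here, so the disagreement between the 7 was not resolved to a part of the gene.

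RGN was read by a single probe set, MmuSTS.3918.1.S1_at. Its signals were 2237, 5618 and 4181 on vehicle replicates 4, 5 and 6 and 577, 596 and 1165 on PGF2alpha replicates 1, 2 and 3. The groups did not overlap, although vehicle replicate 4 was less than 2-fold above the highest treated array, at 1.92 times its signal. The mean went from 4012 ± 1697 to 779 ± 334 (SD, n = 3), or 19.4% of the vehicle mean, and the log2 difference was -2.28 (SE 0.354). RGN varied more between vehicle arrays than the other members did, with an SD of 42.3% of the vehicle mean against 12.6% to 29.2% in the other tested probe sets.

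**Figure D1:**
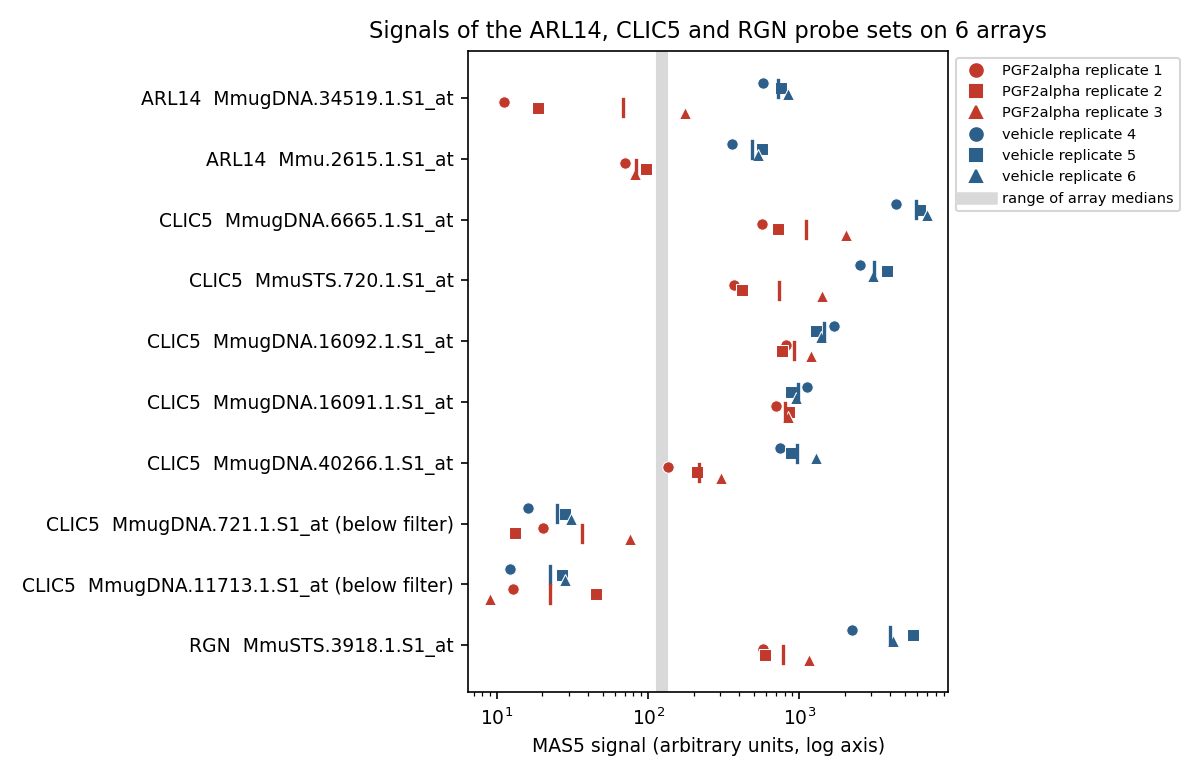
Deposited MAS5 signal (log axis) of each ARL14, CLIC5 and RGN probe set on the 3 vehicle arrays (blue) and 3 PGF2alpha arrays (red), with a vertical bar at each group mean and the range of the 6 array medians in grey. Levels of different probe sets are not comparable. In 8 of the 10 rows all red points lie to the left of all blue points, and the last pair of CLIC5 rows lies below the array medians in both groups.

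In all, 8 of the 10 probe sets passed the filter on low signals, and in all 8 of these every treated array lay below every vehicle array, as in 13.7% of all 26944 tested probe sets. In 6 of the 8 the log2 difference was at most -1, as in 1.82% of all tested probe sets. Since the genes were chosen on this contrast, nothing is read from these counts.

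The members resembled each other in which treated array was least affected. The signal of PGF2alpha replicate 3 was 24.1% of the vehicle mean in ARL14 (MmugDNA.34519.1.S1_at), 34.4% in CLIC5 (MmugDNA.6665.1.S1_at) and 29.0% in RGN. In replicates 1 and 2 it was 1.52% and 2.58% in ARL14, 9.68% and 12.4% in CLIC5 and 14.4% and 14.9% in RGN. The exceptions among the 8 tested probe sets were the second of ARL14, with 14.6%, 20.1% and 16.9% on replicates 1, 2 and 3, and MmugDNA.16091.1.S1_at of CLIC5, with 71.9%, 86.4% and 85.9%.

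**Figure D2:**
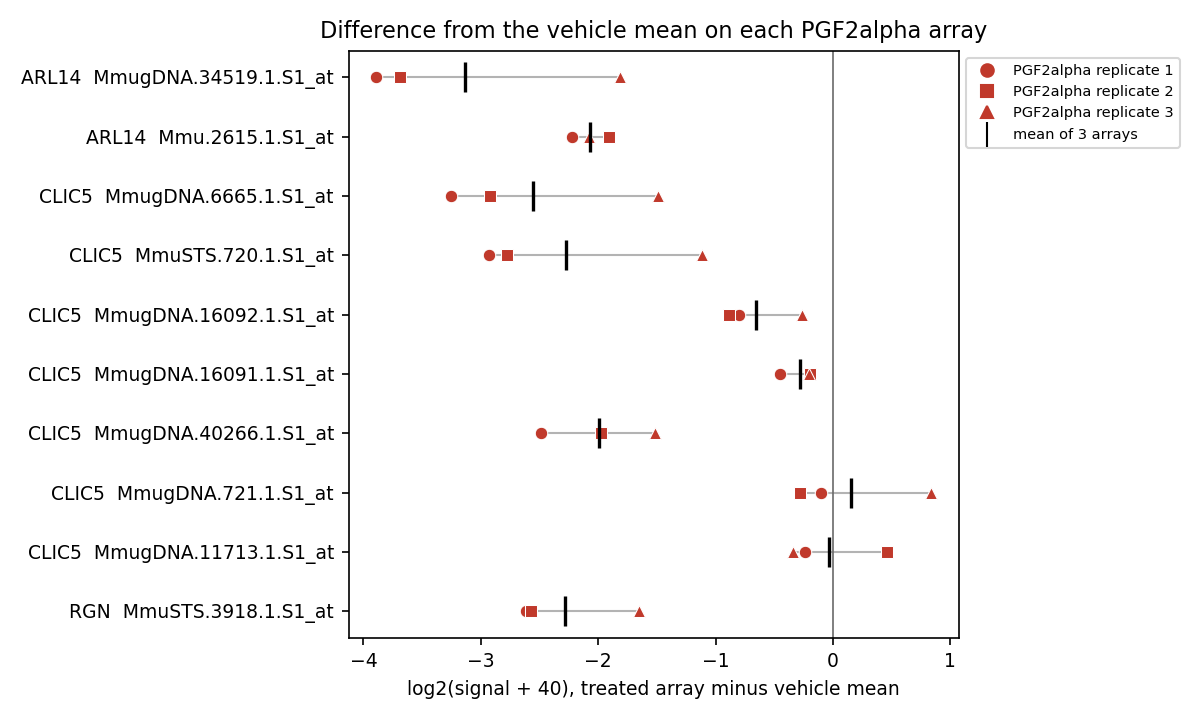
Difference of each PGF2alpha array from the mean of the vehicle arrays, in log2(signal + 40), for the 10 probe sets, with a black bar at the mean of the 3 arrays. Replicate 3 (triangles) lies nearest to 0 in 6 of the 8 tested probe sets, and the CLIC5 rows spread from -2.56 to 0.15.

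Across the 6 arrays the 6 probe sets with a difference of at least 2-fold ran together. Pearson's r of their log2 signals was between 0.887 and 0.998 over the 15 pairs, with a median of 0.962. These values describe 6 arrays that share the group difference on which the genes were chosen. With the group means taken out, ARL14 MmugDNA.34519.1.S1_at and CLIC5 MmugDNA.6665.1.S1_at had an r of 0.989, the highest of any pair of tested member probe sets. The first of these had an r of 0.763 with RGN. On the same footing the second ARL14 probe set had an r of 0.350 with CLIC5 MmugDNA.6665.1.S1_at and 0.680 with RGN. With CLIC5 MmugDNA.16092.1.S1_at it had the lowest r of any pair, -0.523. The 2 probe sets of ARL14 had an r of 0.916 over the 6 arrays and 0.212 with the group means taken out.

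The scanner files record 2 hybridisation times, the first for PGF2alpha replicates 1 and 3 and vehicle replicates 5 and 6, the second for PGF2alpha replicate 2 and vehicle replicate 4. The direction was the same within each of these runs for all 8 tested probe sets. This had to be so, since in these 8 every treated array lay below every vehicle array. The log2 difference was -3.01 within run 1 and -3.38 within run 2 for ARL14 MmugDNA.34519.1.S1_at, and -2.34 and -1.53 for the second ARL14 probe set. It was -2.57 and -2.53 for CLIC5 MmugDNA.6665.1.S1_at and -2.50 and -1.84 for RGN. Within run 2 each of these is a difference of 1 array from 1 array. The CLIC5 probe set MmugDNA.16092.1.S1_at stood at -0.42 within run 1 and -1.11 within run 2. The untested MmugDNA.11713.1.S1_at changed sign between the runs, with -0.41 and 0.71.

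None of the tested relatives of ARL14 passed the test. The list held 45 ARF and ARL GTPases, their regulators and ARL14 partners. Of these 27 were named on the array, and MYO1E was not among them. Of the 25 tested, 0 rose and 0 fell by limma's test across all genes, with 2 higher and 0 lower at an unadjusted p under 0.05. The median log2 difference was 0.11, against -0.02 over all 9980 genes, of which 3.76% rose and 2.31% fell. The share of all genes at an unadjusted p under 0.05 was not counted. The ARL14 effector ARL14EP read 2265 ± 257 with PGF2alpha and 2090 ± 192 with vehicle (SD, n = 3), a log2 difference of 0.11 (SE 0.148, adjusted p = 0.728), and is named as that effector after its values were seen. CD74, the invariant chain of class II molecules, read 5039, 10939 and 5228 on the treated arrays and 3536 to 4321 on the vehicle arrays, so that its log2 difference of 0.74 (adjusted p = 0.156) was 0.38 without replicate 2. The ARF exchange factor CYTH2 stood at 0.39 (adjusted p = 0.156) and the Golgi GTPase ARL1 at -0.43 (adjusted p = 0.245). With each array left out in turn the list had 0 calls.

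The other tested chloride intracellular channel genes had higher, not lower, means after PGF2alpha. The list held 25 CLIC genes, ezrin-radixin-moesin proteins and membrane-actin partners, of which 20 were named on the array. Of the 18 tested, 2 rose and 0 fell. Their median log2 difference was 0.27 against -0.02 over all genes, of which 3.76% rose and 2.31% fell. CLIC2 rose, with treated signals of 3477, 4481 and 3832 and vehicle signals of 2588, 2060 and 2581 (log2 difference 0.70, SE 0.158, adjusted p = 0.0395), and its other probe set rose as well (0.99, adjusted p = 0.0167). CLIC1 was higher on all treated arrays, from 12728 ± 943 to 17633 ± 391 (SD, n = 3), and did not pass (0.47, SE 0.115, adjusted p = 0.0505). It passed under 5 of 17 alternatives, with an adjusted p of 0.0345 to 0.0495, and reached 0.166 under the others. CLIC4 did not pass with its brightest probe set (0.77, adjusted p = 0.0858), while 2 of its other 3 rose, by 1.70 (adjusted p = 0.0148) and 1.37 (adjusted p = 0.0305). CLIC3 and CLIC6 lay below the filter. CLIC1 and CLIC4 are named as relatives of CLIC5 and EZR as its partner, after their values were seen.

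The second call in that list was the cytoskeletal linker moesin (MSN), whose probe sets disagreed. The brightest rose by 0.70 (SE 0.147, adjusted p = 0.0315), another fell by 0.93 (adjusted p = 0.0256), and the remaining pair stood at -0.51 (adjusted p = 0.187) and -0.29 (adjusted p = 0.647). Ezrin (EZR), the partner of CLIC5 at the actin cortex, was higher on all treated arrays, from 1687 ± 84.3 to 2456 ± 372 (SD, n = 3), and did not pass (0.52, adjusted p = 0.0930), and its other 3 probe sets had the same sign. The call of CLIC2 was lost with each array left out in turn, to an adjusted p of 0.0799, 0.142 and 0.0564 (PGF2alpha replicates 1, 2 and 3 left out) and of 0.0813, 0.0966 and 0.103 (vehicle replicates 4, 5 and 6 left out). That of MSN was lost when PGF2alpha replicate 1 or 2 was left out (adjusted p = 0.109 and 0.117) and when vehicle replicate 4, 5 or 6 was left out (adjusted p = 0.0819, 0.0805 and 0.0986). Without PGF2alpha replicate 3 the adjusted p of EZR was 0.0407 and that of CLIC4 0.0106.

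Genes near RGN in function were mixed. The list held 46 genes of calcium handling and of ascorbate and sugar acid metabolism, of which 34 were named on the array. Of the 27 tested, 4 fell and 0 rose. Over all 9980 genes 2.31% fell and 3.76% rose. The median log2 difference of the 27 was 0.01. ITPR1, an inositol trisphosphate receptor that releases calcium from the endoplasmic reticulum, read 2746, 4374 and 3936 with vehicle and 1737, 1315 and 1706 with PGF2alpha. It fell by 1.18 on the log2 scale (SE 0.201, adjusted p = 0.0158), and its 3 other tested probe sets fell too, with log2 differences between -1.05 and -1.47. ATP2B4, a calcium pump of the plasma membrane, read 886, 746 and 1050 with vehicle and 146, 119 and 486 with PGF2alpha, so that replicate 3 was the highest treated array here as in RGN. It fell by 1.89 (SE 0.397, adjusted p = 0.0310).

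PON3, a lactonase of the paraoxonase family, read 15018, 8149 and 8676 with vehicle and 4374, 4940 and 5465 with PGF2alpha. It fell by 1.05 (SE 0.225, adjusted p = 0.0329), and its vehicle mean rested in part on replicate 4. S100A1, a calcium-binding protein of the S100 family, fell from 231 ± 48.1 with vehicle to 83.5 ± 15.2 with PGF2alpha (SD, n = 3). Its log2 difference was -1.13 (SE 0.254, adjusted p = 0.0389). It passed the filter on low signals only through the vehicle arrays, which favoured a fall, and without any one of these it was not tested. Its adjusted p was 0.112 without PGF2alpha replicate 1 and 0.112 without replicate 2. The call of PON3 was lost without PGF2alpha replicates 1 and 2 and vehicle replicate 6 (adjusted p = 0.117, 0.114 and 0.0681).

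The call of ITPR1 was lost without PGF2alpha replicate 2 (adjusted p = 0.0714) and without vehicle replicate 6 (adjusted p = 0.0648). That of ATP2B4 was lost without PGF2alpha replicates 1 and 2 (adjusted p = 0.109 and 0.114) and without vehicle replicates 4, 5 and 6 (adjusted p = 0.0846, 0.0680 and 0.109). Without PGF2alpha replicate 3 its adjusted p was 0.000839. Of the sugar acid enzymes, PGLS, the lactonase of the pentose phosphate pathway, stood at 0.36 (adjusted p = 0.268), and the glucuronate reductase AKR1A1 at 0.08 (adjusted p = 0.823). UGDH, which makes UDP-glucuronate, stood at -0.13 (adjusted p = 0.646). The last 3 were named after their values were seen, for their place beside RGN.

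**Figure D3:**
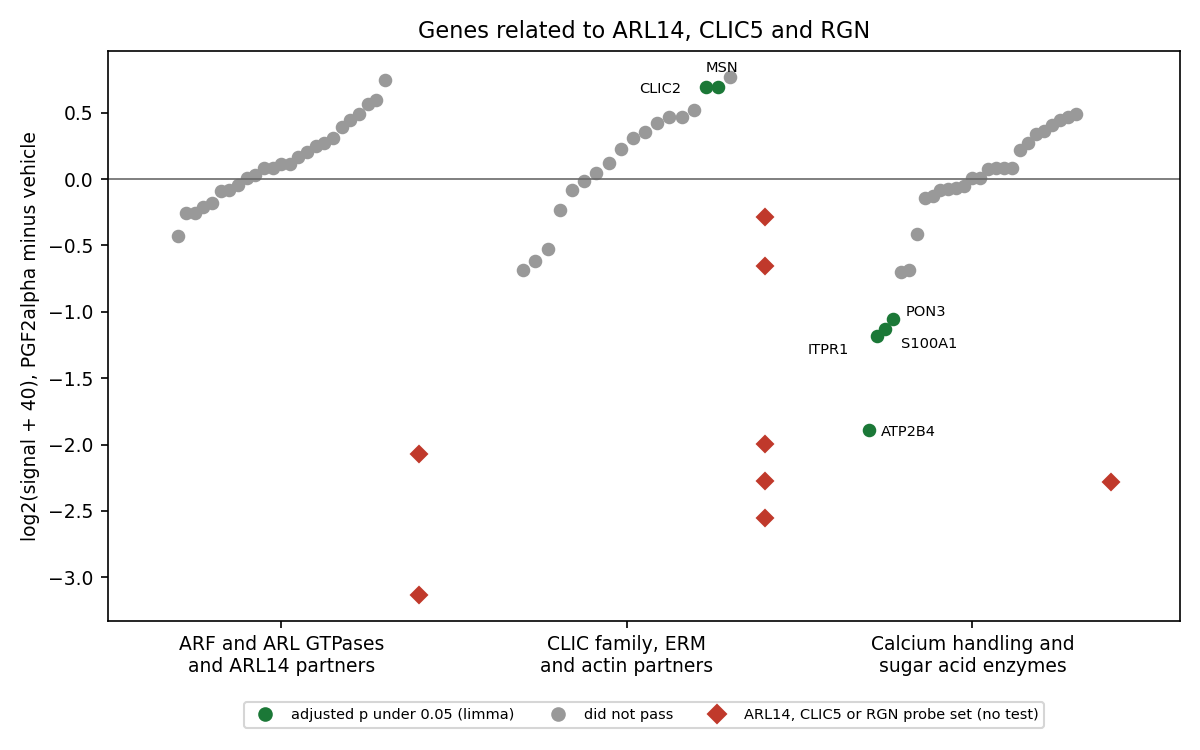
Log2 difference (PGF2alpha minus vehicle, on log2(signal + 40)) of each tested gene in the 3 lists, ordered within a list, with genes past an adjusted p of 0.05 by limma in green and the tested ARL14, CLIC5 and RGN probe sets as red diamonds, which carry no test. The green points are CLIC2 and MSN above 0 and ITPR1, ATP2B4, PON3 and S100A1 below it, and all 25 grey points of the ARF and ARL list lie between the ARL1 value of -0.43 and the CD74 value of 0.74.

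Genes with the most similar pattern were sought among 16681 named probe sets by Pearson's r of log2 signals over the 6 arrays. For ARL14 (MmugDNA.34519.1.S1_at) these were DCLK1, a doublecortin-like kinase (r = 0.997), ADAMTS5, an aggrecan-cleaving protease, with 2 probe sets (0.995 and 0.995), CCPG1, a receptor for turnover of the endoplasmic reticulum (0.995), and YEATS4, a histone-binding protein (0.994). For CLIC5 (MmugDNA.6665.1.S1_at) they were DCLK1 (0.997), DPY19L4 (0.996), ADAMTS5 (0.994), YEATS4 (0.993) and HIBADH, an enzyme of valine breakdown (0.992). These ARL14 and CLIC5 probe sets had an r of 0.998 with each other, so sharing DCLK1, ADAMTS5 and YEATS4 was largely fixed in advance. The second ARL14 probe set was not searched. For RGN they were TPP1, a lysosomal peptidase (0.990), the splicing factor PRPF8 (0.990), LOC701504 (0.989), the transcription factor RUNX2 (0.989) and the magnesium transporter MAGT1 (0.988). Pearson's r takes no account of the size of a difference. The log2 differences of these probe sets ran from -0.20 for CCPG1 to -1.29 for an ADAMTS5 probe set. RUNX2 stood at -0.44. DPY19L4 stood at -0.58 and HIBADH at -0.50. All were picked for likeness to members chosen on this contrast. That choice largely fixes the sign of their differences, so they carry no test.

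DCLK1 read 461, 543 and 530 with vehicle and 156, 182 and 324 with PGF2alpha, so that it too was highest in treated replicate 3. TPP1, nearest to RGN, read 4812, 5945 and 5931 with vehicle and 3356, 3099 and 3886 with PGF2alpha, so that it was lowest in vehicle replicate 4 as RGN was. The most opposite pattern belonged to AMPD3, an AMP deaminase, for both ARL14 and CLIC5 (r = -0.998 and -0.998), with 205 ± 35.7 in vehicle and 1129 ± 482 with PGF2alpha (SD, n = 3). For RGN it belonged to ARRB1, beta-arrestin 1 (r = -0.999). With 6 arrays in 2 groups many probe sets reached a high r. At a cut of 0.95, looser than the values named here, r was above it in 280 of the 16681 named probe sets for ARL14, 237 for CLIC5 and 151 for RGN.

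Markers of several cell types moved with the members, and their part in the differences was not tested. The gland's own markers were present: STAR, the cholesterol carrier of steroid synthesis, read 63395 ± 7411 with vehicle and 40203 ± 8854 with PGF2alpha, and the electron carrier FDX1 read 35804 ± 2964 and 19922 ± 8764 (SD, n = 3). The summed signal of 9 named markers of steroidogenic cells was 166135 to 198611 with vehicle, and with PGF2alpha it was 83137, 91313 and 149189 on replicates 1, 2 and 3. In percent of the vehicle mean these treated sums were 45.8%, 50.3% and 82.1%, so that replicate 3 was the least affected array here as well. Of the 9 steroidogenic markers, all treated arrays were below all vehicle arrays for 5, the groups overlapped for 4, and the log2 difference was positive for 1. The summed signal of 12 markers of epithelium and ovarian surface was 5585 to 7244 with vehicle and 3628 to 4310 with PGF2alpha. Of these markers 4 lay below the array median on all 6 arrays, and the 12 differed in direction: all treated arrays were below all vehicle arrays for 5, above them for 1 (KRT19) and overlapping for 6. All treated arrays were below all vehicle arrays in 13.7% of the 26944 tested probe sets, whereas the marker counts include probe sets below the filter. The tight-junction gene CLDN3, at 1905 ± 587 with vehicle and 428 ± 396 with PGF2alpha (SD, n = 3), made up 66.2% of the difference in the sum. Without it the sums were 4034 to 4661 and 3426 to 3918. The brighter keratin KRT18 read 2647 ± 400.0 and 1929 ± 214 (SD, n = 3).

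In the other direction, the summed signal of 13 macrophage and monocyte markers was 21181 to 35894 with vehicle and 52413 to 86209 with PGF2alpha, and that of 9 neutrophil markers 3646 to 6880 and 12518 to 31087. All treated arrays were above all vehicle arrays for 9 of the 13, and the groups overlapped for 4. Among these 4, C1QA read 2251 ± 679 with vehicle and 2830 ± 852 with PGF2alpha (SD, n = 3). Of the 9 neutrophil markers 5 were higher on all treated arrays and 4 overlapped, and 3 lay below the array median on all 6 arrays. The share of all probe sets with every treated array above every vehicle array was not counted, so nothing is read from such counts. LCN2 made up most of the vehicle neutrophil sums, with 3056, 6486 and 2954 on replicates 4, 5 and 6. It read 11367, 12180 and 7006 with PGF2alpha. MMP9 went from 141 ± 43.6 with vehicle to 844 ± 496 (SD, n = 3). The sum of 9 lymphocyte markers was 11403 to 15416 and 25126 to 41286, and 98.4% of that difference came from GNLY, a granule protein of cytotoxic lymphocytes. Without GNLY the lymphocyte sums overlapped, at 8080 to 13442 with vehicle and 9570 to 14322 with PGF2alpha. The granzyme GZMA went the other way, from 3024 ± 501 to 1692 ± 441 (SD, n = 3), while GZMB and CD4 overlapped between the groups. Without the leading gene of their lists, LYZ and S100A9, the macrophage and the neutrophil sums did not overlap (8721 to 14756 against 27654 to 34083, and 3583 to 6850 against 10115 to 20834). The steroidogenic sums without STAR did not overlap either (107317 to 126666 against 49305 to 98876). The genes left out of the sums, KRT19 and CD4 were chosen after their values were seen. Sums overlapped between the groups for 10 endothelial markers (26396 to 29782 and 25340 to 36190) and 7 fibroblast and pericyte markers (59403 to 80690 and 77545 to 93181). The endothelial VWF and PECAM1 overlapped as well. Of the 7 fibroblast and pericyte markers 6 overlapped, COL1A2 among them. DCN was higher on all treated arrays, at 25699 ± 4923 with vehicle and 39566 ± 1746 with PGF2alpha (SD, n = 3). None of the 69 markers was at 0 on all arrays. The ratio of the 3-prime to the 5-prime probe set of beta-actin, a measure of RNA integrity, was 1.73 to 1.78 with PGF2alpha and 1.49 to 2.25 with vehicle.

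**Figure D4:**
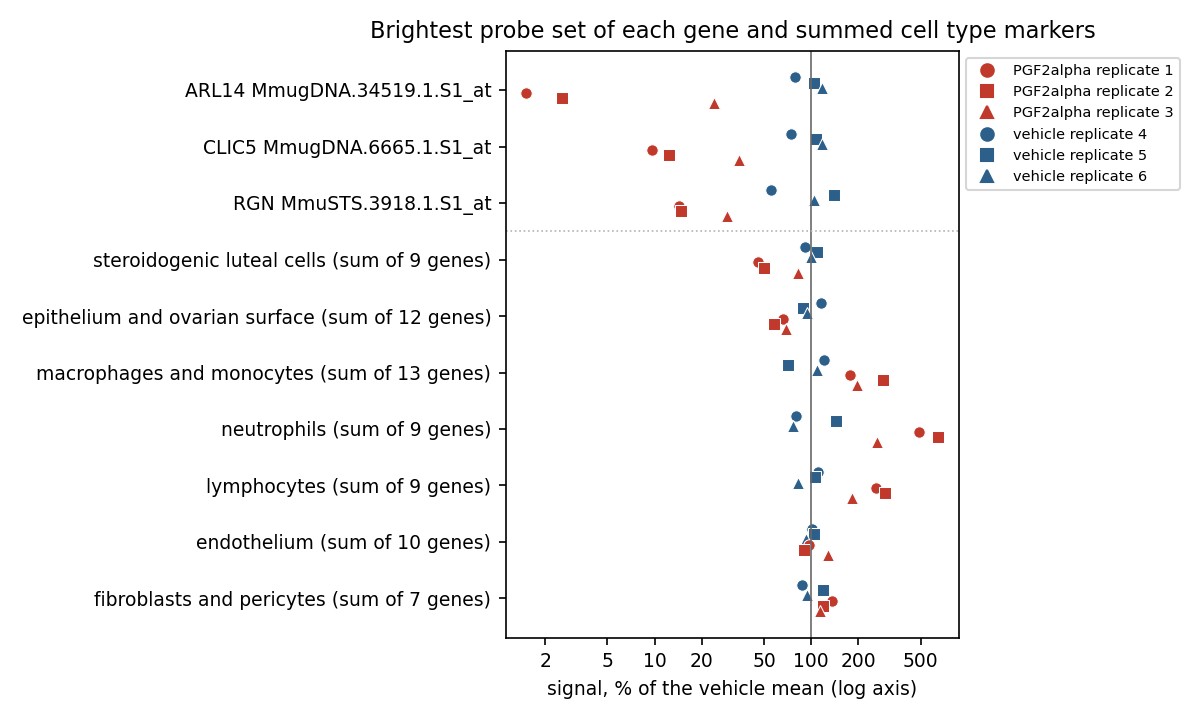
Signal of the brightest probe set of ARL14, CLIC5 and RGN and the summed signal of each cell type marker list on every array, in percent of the vehicle mean (log axis). The members on PGF2alpha replicates 1 and 2 lie between 1.52% and 14.9%, further from 100% than the steroidogenic sums at 45.8% and 50.3%, and replicate 3 lies to the right of the other treated arrays in these 4 rows.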

How the data were processed

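Each probe set has 1 deposited intensity per array, on a linear scale. The authors made these signals with Microarray Suite 5.0 (MAS5, version not given in the sources used here), as the labels and the submitters' processing notes state. After trimming 2% at either end, every array had a mean of 500.0, and the deposited scaling was kept. Symbols came from a platform annotation, which can be old. It gave 1 symbol for 24969 of 52865 probe sets, several for 361 and none for 27535, and it does not place a probe set within its gene.

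A pseudocount of 40, the rounded 25th percentile of the table, was added before taking log2. A probe set was tested if at or above its array's median in at least 3 arrays, which left 26944. Groups were compared two-sided with limma 3.58.1 in R 4.3.3 (lmFit, eBayes with a variance trend, no covariate). P-values were adjusted by Benjamini-Hochberg across the 26944, with 0.05 as the threshold. A gene was represented by its brightest tested probe set. The fit was tested on simulated data. With 6 arrays, precision is limited by their number.

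The members, the 3 gene lists and the 7 marker lists were chosen with earlier results of these data known. Named genes are all member probe sets, the genes of each list that passed (at most 6) or else the 3 of smallest p, the 5 named probe sets most like each gene's brightest member probe set over the 6 arrays and the 1 least like it, and the 2 brightest vehicle markers of each list. Genes named outside this rule are identified in the text. Marker sums without their leading gene were added after seeing the data. Alternatives were other scalings, pseudocounts, filters, variance models, array weights, the hybridisation run as a block, leaving out probe sets that can cross-hybridise, and each array left out.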

Additional observations from a re-analysis of the deposited data

How the results depend on the processing

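The differences of the 8 tested probe sets of ARL14, CLIC5 and RGN were negative under every alternative that gave a value, a direction that the choice of the genes largely fixes. The second ARL14 probe set passed the filter only through the vehicle arrays and has no value with any one of these left out. ARL14 depended most on the pseudocount: with 160 in place of 40 its log2 differences were -2.02 and -1.39, and with 10 they were -3.92 and -2.39. Within hybridisation runs 1 and 2 this second ARL14 probe set stood at -2.34 and -1.53, the CLIC5 probe set MmugDNA.16092.1.S1_at stood at -1.11 within run 2, and the dim MmugDNA.11713.1.S1_at at -0.41 and 0.71. With each array left out in turn the brightest probe sets ranged from -3.79 to -2.75 for ARL14, from -3.09 to -2.21 for CLIC5 and from -2.65 to -1.99 for RGN.

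All probe sets called numbered 1351, 826 with no filter, 669 without the variance trend, and 177 to 1800 with arrays left out. The 2 calls of the CLIC list became 1 with scaling to one median, 0 with no filter or without the trend, 4 with array weights, and 0 to 3 with arrays left out. The 4 calls of the calcium list became 1 with no filter, 2 without the trend, and 0 to 5 with arrays left out. The ARF and ARL list had 0 calls by limma under all 17 alternatives, with 2 genes at an unadjusted p under 0.05 in the reported fit. The cause of these changes was not tested. No paired analysis was possible because the groups share no replicate numbers. Dim treated signals of ARL14 limit how far its fold can be read.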
